A study of Mus musculus with 4 samples.

Results

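TRBV20 and TRBV23 are variable (V) segments of the mouse T cell receptor (TCR) β locus, known in the older nomenclature as Vβ15 and Vβ20. Clones were selected by the V segment listed first for them, so that the V assignment chose the members and everything the V segment itself encodes follows from it. TRBV20 was the V segment of 23850 of the 382531 TCRβ clones in the 4 libraries and TRBV23 that of 3371, and together they are 2 of the 24 TRBV segments found. Each of their clones listed a single V segment, and no clone of another segment listed either of them in second place.

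Spleen CD4 T cells were taken from 2 wild type (WT) and 2 Tet2/3 DKO mice, whose average age was 25 days. The Tet2/3 DKO mice carry a germline deletion of Tet2 and delete floxed Tet3 with CD4-Cre, which acts from the double positive stage of the thymus, after the TCRβ chain has been rearranged. Live CD4+ CD25- TCRβ+ cells were sorted, naïve and activated together, and cells that bind the αGalCer-loaded CD1d tetramer were left out. The total TCRβ reads were 365421 and 454098 for WT (replicates 1 and 2) and 409444 and 569678 for Tet2/3 DKO (likewise), over 81127 to 104017 clones. A clone is a distinct sequence from framework region 1 (FR1) to framework region 4, and its reads are not counted by molecular identifier, so confidence intervals here cover counting error only. The tables hold receptor sequences alone, and neither the deletion of the Tet genes nor the sorted cell type could be checked in them. The libraries are labelled as biological replicates.

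A TCRβ chain is made when 1 V, 1 D and 1 J segment are joined in an early thymocyte, with bases removed from the segment ends and added between them. The join encodes the third complementarity determining region (CDR3), the part of the chain that faces the peptide on an MHC molecule. The first and second regions, CDR1 and CDR2, are fixed by the V segment. In the mm10 assembly (GRCm38.p6, RefSeq annotation) Trbv20 lies on chromosome 6 from 41188273 to 41188977 and Trbv23 on the same chromosome from 41216073 to 41216526, with 27095 bases between them. Both are annotated as V segments, and Trbv21 and the pseudogene Trbv22 lie between them.

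The sequences that tell the segments apart are given as the libraries held them. The CDR1 and CDR2 are those of most reads, and the CDR3 end is the stretch that an untrimmed V segment gives to the CDR3.
TRBV20 CDR1: ggttttcaggcaacttct
TRBV20 CDR2: tctactgtgaactcagcaatc
TRBV20 CDR3 end: tgtggtgctaggga
TRBV23 CDR1: aaggggcacactgct
TRBV23 CDR2: tttcagaatcaacagcct
TRBV23 CDR3 end: tgctccagcagtcaatc
TRBV20 thus gives 14 bases to an untrimmed CDR3 and TRBV23 gives 17. This CDR1 was found in 99.6% of TRBV20 reads and 88.9% of TRBV23 reads, and most of the TRBV23 reads without it belonged to clones whose V start was replaced, as described further down.

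TRBV20 was the fifth most used TRBV segment by reads and TRBV23 was 1 of the 6 least used. TRBV20 held 8.32% of the TCRβ reads in WT replicate 1 (95% Wilson interval 8.23% to 8.41%) and 7.72% in WT replicate 2 (7.64% to 7.79%). It held 7.01% in Tet2/3 DKO replicate 1 (6.94% to 7.09%) and 6.95% in Tet2/3 DKO replicate 2 (6.89% to 7.02%). Both WT libraries lay above both Tet2/3 DKO libraries. Counted by clones in place of reads, TRBV20 held 6.23% and 6.28% in WT libraries and 6.22% and 6.21% in Tet2/3 DKO, so that the 4 libraries differed by less than 0.1 percentage points. In mean read share, 7.50%, TRBV20 stood between TRBV13-1 with 10.6% and TRBV13-2 with 6.55%.

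TRBV23 held 0.799% (0.770% to 0.828%) and 0.623% (0.601% to 0.647%) of the reads in the WT libraries, replicate 1 first. The shares were 0.572% (0.549% to 0.595%) and 0.522% (0.504% to 0.541%) in the Tet2/3 DKO libraries. By clones the shares were 0.958% and 0.912% in WT libraries and 0.833% and 0.837% in Tet2/3 DKO. The genotypes did not overlap for TRBV23 on either scale. TRBV23 stood between TRBV19 with 1.24% and TRBV2 with 0.499% in mean read share, and the lowest library of TRBV23 lay below the highest of TRBV2, 0.641%.

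**Figure D1:**
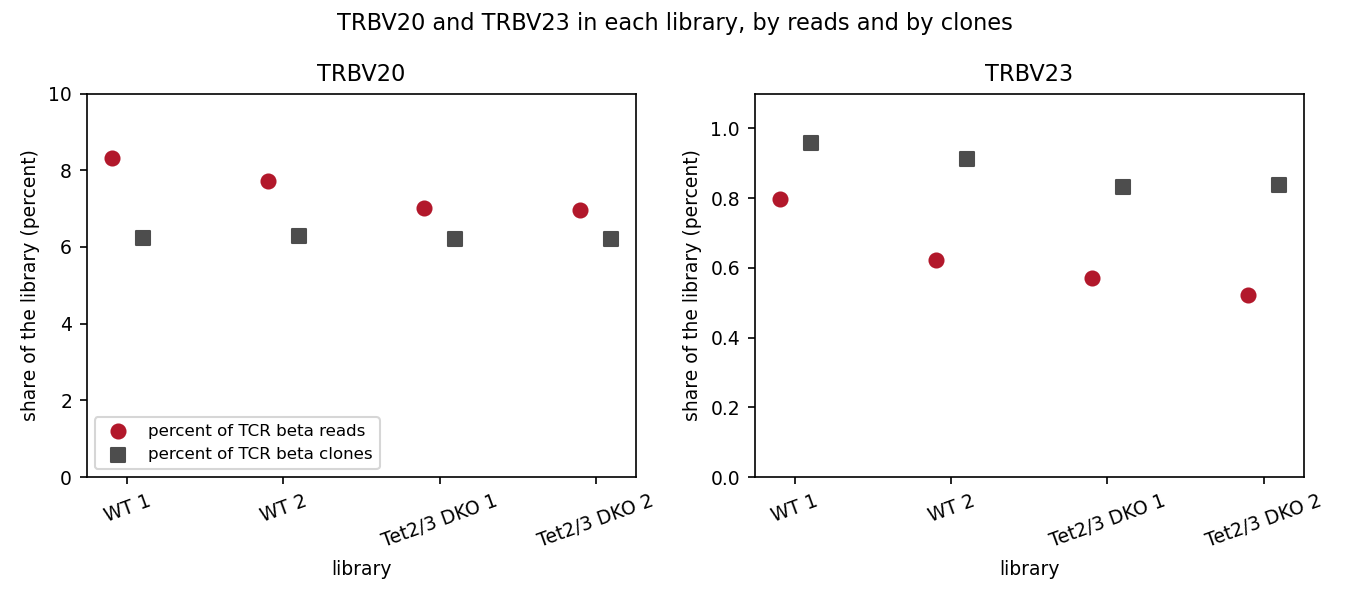
Share of TRBV20 (left) and TRBV23 (right) in each library in percent, with circles for the share of TCRβ reads and squares for the share of TCRβ clones. The TRBV20 circles lie at 8.32% and 7.72% in the WT libraries and at 7.01% and 6.95% in the Tet2/3 DKO libraries, while its squares all lie between 6.21% and 6.28%.

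The comparison of genotypes asked whether loss of Tet2 and Tet3 went with a different use of these segments. In edgeR's quasi-likelihood test over all TRBV segments, the log2 fold change of Tet2/3 DKO over WT by reads was -0.20 for TRBV20 (SE 0.11, adjusted p = 0.461) and -0.38 for TRBV23 (SE 0.28, adjusted p = 0.626). None of the 24 segments passed the threshold, a background of 0%, and 3 had an unadjusted p below 0.05, neither member among them. DESeq2 called 1 segment, which was neither member. By clones the log2 fold changes were -0.01 for TRBV20 (SE 0.05, adjusted p = 0.997) and -0.16 for TRBV23 (SE 0.09, adjusted p = 0.673). Read shares that did not overlap between genotypes were found for 7 of 24 segments (29.2%) and clone shares that did not overlap for 8 of 24 (33.3%), and both members were among them on both scales. Without WT replicate 1 the log2 fold change by reads was -0.14 for TRBV20 and -0.19 for TRBV23, and without WT replicate 2 it was -0.25 and -0.55. Alternatives that kept 2 libraries per genotype gave an adjusted p (edgeR or DESeq2) of 0.422 to 0.997 for TRBV20. For TRBV23 it was 0.389 to 0.716.

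One large clone accounted for part of the TRBV20 value in WT replicate 1. Without the most abundant TRBV20 clone of each library, the read shares were 7.64% and 7.60% in WT libraries and 6.92% and 6.76% in Tet2/3 DKO. Without the 10 most abundant they were 7.07%, 7.23%, 6.62% and 6.21%, and the genotypes did not overlap. Without the 100 most abundant they were 6.02%, 6.25%, 6.03% and 5.25%, so that WT replicate 1 and Tet2/3 DKO replicate 1 were nearly equal and the genotypes overlapped. The log2 of the mean Tet2/3 DKO over the mean WT share was -0.16 and -0.12 in these last 2 cases. Without the 10 most abundant TCRβ clones of each library, of any segment, the edgeR log2 fold change of TRBV20 was -0.08 (adjusted p = 0.932).

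TRBV20 clones carried more reads than clones of other segments and TRBV23 clones carried fewer. Relative to the mean reads per clone of the same library, TRBV20 clones held 1.34 and 1.23 times as many in WT libraries and 1.13 and 1.12 times as many in Tet2/3 DKO. This mean ratio, 1.20, was the highest of the 24 segments, and TRBV20 ranked 1 in each library other than Tet2/3 DKO replicate 2, where it ranked 5. For TRBV23 the ratios were 0.834 and 0.683 in WT libraries and 0.686 and 0.624 in Tet2/3 DKO, and its mean of 0.707 ranked 23. The ratio of TRBV20 did not overlap between genotypes and that of TRBV23 did, against 10 of 24 segments without overlap (41.7%).

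The excess of TRBV20 grew with the size of the clone. Among clones of 1 read, TRBV20 made up 5.50%, 5.40%, 5.46% and 5.41% in the 4 libraries, which are always given with both WT replicates first and both Tet2/3 DKO replicates after them. Among clones of 11 to 50 reads it made up 9.70%, 7.76%, 7.64% and 7.69%. Among clones of over 50 reads it made up 14.3% of 230, 18.3% of 224, 14.8% of 108 and 8.18% of 501 clones. The difference between clones of over 50 reads and clones of 1 read was 8.47 ± 4.21 percentage points (SD, n = 4 libraries). It had the same sign in 4 of 4 libraries (exact sign-flip permutation test, two-sided, p = 0.13, the smallest p that 4 libraries allow). TRBV20 held more reads per clone than the mean of each library, so this sign was largely given beforehand and the test adds no separate result. TRBV23 made up 1.02% to 1.24% of the clones of 1 read and 0.272% to 0.332% of those of 11 to 50 reads. Only 5 TRBV23 clones had over 50 reads, 4 of them in WT replicate 1 and 1 in Tet2/3 DKO replicate 2.

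**Figure D2:**
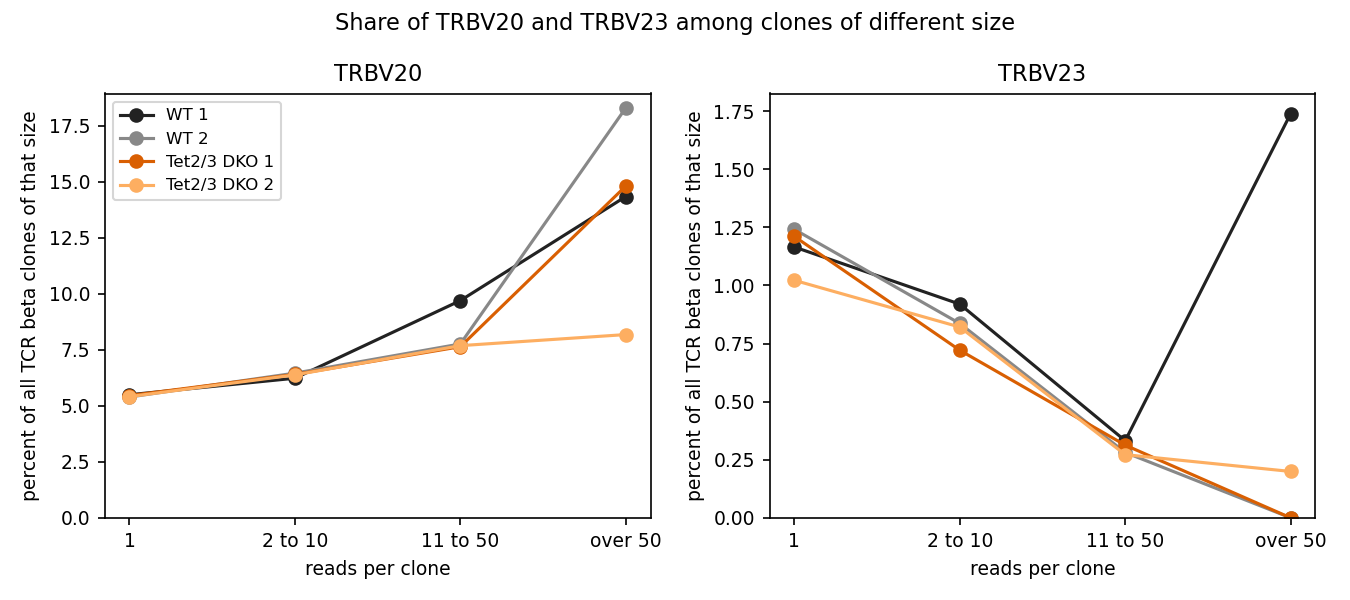
Share of TRBV20 (left) and TRBV23 (right) among all TCRβ clones of a given number of reads, in percent, with a line for each library. TRBV20 lies at 5.40% to 5.50% of clones of 1 read and at 8.18% to 18.3% of clones of over 50 reads.

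The larger size of TRBV20 clones was seen in frame and not out of frame. An out-of-frame CDR3 cannot encode a receptor, and its clone is usually carried by a cell whose other allele encodes the chain in use. In-frame TRBV20 clones held 6.09, 5.63, 4.81 and 6.21 reads per clone, against 4.47, 4.50, 4.24 and 5.53 for in-frame clones of all other segments in the same libraries. Out-of-frame TRBV20 clones held 3.20, 2.85, 2.90 and 3.55 reads per clone, against 3.06, 3.26, 3.06 and 3.56 for those of other segments. The ratio to other segments was 1.22 in frame and 0.966 out of frame on average. The log2 of the in-frame over the out-of-frame ratio was 0.33 ± 0.15 (SD, n = 4 libraries, exact sign-flip permutation test, two-sided, p = 0.13), above 0 in 4 of 4 libraries. It rests on 120 to 157 out-of-frame TRBV20 clones per library. For TRBV23 the ratios were 0.707 in frame and 0.635 out of frame, with 26 to 30 out-of-frame clones per library, so that its clones were small in both.

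Out-of-frame reads were rarer for TRBV20 than for other segments. They made up 1.27% and 1.28% of the TRBV20 reads with a CDR3 in WT libraries and 1.38% and 1.39% in Tet2/3 DKO, against a mean of 2.56% for other segments. In-frame reads without a stop codon made up 98.7% in both WT libraries and 98.6% in both Tet2/3 DKO libraries. This share was higher than that of other TRBV by 1.29 ± 0.196 percentage points (SD, n = 4 libraries, exact sign-flip permutation test, two-sided, p = 0.13), in 4 of 4 libraries. The Tet2/3 DKO libraries were lower than the WT libraries (a difference of -0.107 points in percent, p = 0.33 in a two-sided exact permutation test, the smallest p that 2 against 2 libraries allow), without overlap, as in 10 of 24 segments (41.7%), but when each clone was counted once the difference was 0.0949 points in the other direction. For TRBV23 the out-of-frame share was 1.65% and 1.88% in WT libraries and 2.58% and 2.12% in Tet2/3 DKO. The TRBV23 in-frame share was higher than that of other TRBV by 0.406 ± 0.350 percentage points (SD, n = 4, same exact test, p = 0.13). It was 0.266 without WT replicate 1. Between genotypes the TRBV23 in-frame share differed by -0.532 percentage points (exact permutation test, p = 0.33), by -0.330 without Tet2/3 DKO replicate 1 and by -0.294 with each clone counted once.

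The CDR3 of TRBV20 was shorter than that of other segments, and that of TRBV23 was not. Since the V segment gives part of the CDR3, the total length is a description. The read-weighted mean of in-frame TRBV20 clones was 13.2 and 13.1 amino acids in WT libraries and 13.0 and 12.9 in Tet2/3 DKO, against 13.7, 13.7, 13.7 and 13.6 for other segments. The most common TRBV20 length was 13 amino acids in WT replicate 2 and in both Tet2/3 DKO libraries and 14 in WT replicate 1, whose most abundant TRBV20 clone has 14. For TRBV23 the means were 13.7 and 13.8 in WT libraries and 13.7 and 13.8 in Tet2/3 DKO, with 14 amino acids the most common length in 4 of 4 libraries.

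The TRBV20 difference could be divided by the part of the CDR3. The V part was shorter, with a mean difference of -1.66 bases from other segments. The stretch between V and J, made of D and added bases, held 7.97 and 7.70 bases in WT libraries and 7.56 and 7.42 in Tet2/3 DKO. It was shorter than in other segments, with a difference of -0.910 ± 0.222 bases (SD, n = 4 libraries, exact sign-flip permutation test, p = 0.13), in 4 of 4 libraries. Where the V part ends follows the alignment, and whether D bases were counted as V was not tested. The J part, at 19.4, 19.2, 19.04 and 18.98 bases, was longer than that of other segments by 0.606 ± 0.151 bases (same exact test, p = 0.13). When each clone was counted once the difference was -0.932 bases for the stretch between V and J and 0.332 bases for the J part. In out-of-frame TRBV20 clones the whole CDR3 was 37.7 to 40.0 bases long, against 40.9 to 41.9 in those of other segments. For TRBV23 the difference from other segments was 0.817 bases for the V part, -0.232 ± 0.135 bases for the stretch between V and J and -0.274 ± 0.104 bases for the J part (SD, n = 4, exact sign-flip permutation test, p = 0.13 for each of the last 2).

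Between genotypes, the TRBV20 CDR3 was shorter in Tet2/3 DKO, with a difference of -0.189 amino acids (exact permutation test, p = 0.33), with no overlap, as in 10 of 24 segments (41.7%). The difference was -0.111 without WT replicate 1 and -0.0960 without the 10 most abundant clones of each library. Counted once per clone the means were 13.0, 13.0, 13.0 and 12.9, and the difference of -0.0251 amino acids lay within the overlap of the libraries. For TRBV23 the difference was -0.00859 amino acids (exact permutation test, p = 0.667), less than the spread between replicates.

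**Figure D3:**
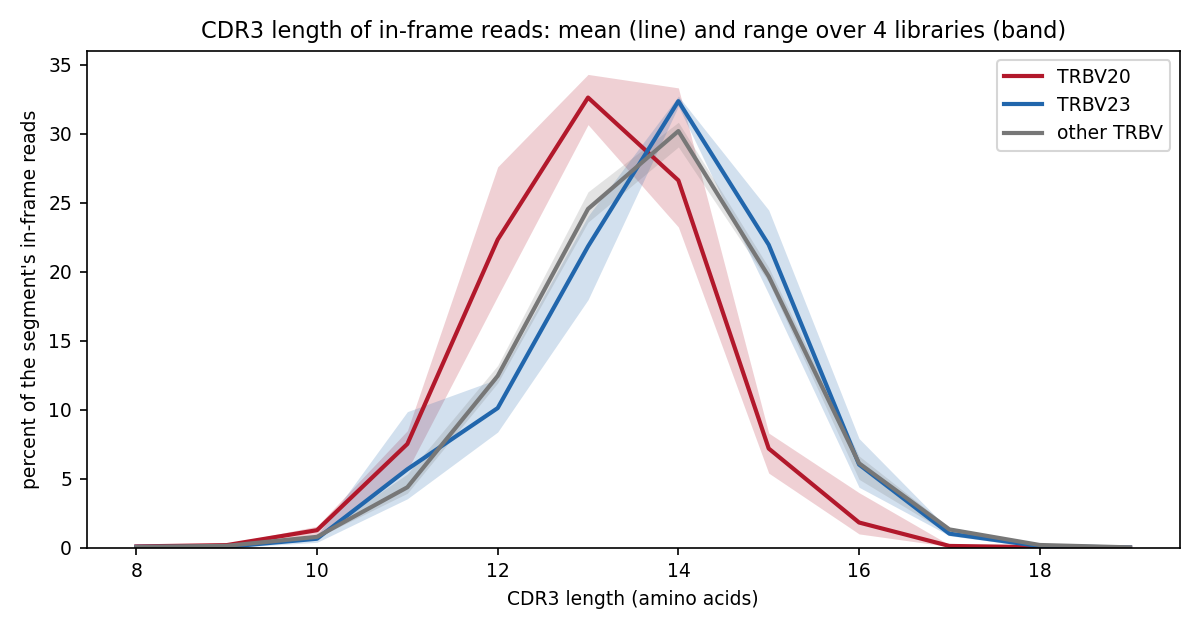
CDR3 length of in-frame reads in amino acids for TRBV20, TRBV23 and all other TRBV segments, as percent of the reads of that part. Lines are means of the 4 libraries and bands the lowest to highest library. The TRBV20 curve lies at shorter lengths, and the TRBV23 curve follows that of the other segments.

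The start residues of the CDR3 follow from the V segment. CDR3s of TRBV20 began with CGA in 97.5% to 98.0% of in-frame reads and those of TRBV23 with CSS in 98.6% to 99.3%. At the fourth residue, where trimming begins to matter, TRBV20 had arginine (CGAR), encoded by the untrimmed segment or completed by added bases, in 62.4% and 67.8% of reads in WT libraries and in 72.2% and 71.5% in Tet2/3 DKO. Per clone, CGAR made up 66.8%, 64.5%, 68.0% and 68.9%. CGAS came next, at 17.7% of reads in WT replicate 1, which holds the large clone, and 8.25% to 9.47% in the other libraries, but at 8.96% to 10.1% of clones in all of them. TRBV23 began with CSSS in 89.2% to 92.1% of reads and with CSSR in 3.58% to 4.85%. The V end of TRBV20 was untrimmed in 37.7% and 40.0% of in-frame reads in WT libraries and in 37.6% and 37.0% in Tet2/3 DKO, 6.35 ± 1.40 percentage points above other segments (SD, n = 4 libraries). Counted once per clone this difference was 3.51 ± 1.13 percentage points. An end counts as untrimmed by the alignment in the deposited tables, and of the 5053 TRBV20 clones aligned exactly to the segment's end, 75.1% carried the printed CDR3 end base for base, against 95.3% of 405 for TRBV23, so that these shares are of alignments and not of exact ends. For TRBV23 these shares were 23.5%, 28.7%, 27.2% and 35.7%, on both sides of the other segments.

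Both segments joined all 12 TRBJ segments that were tested. For each TRBV, the TRBJ shares were set against those of all other TRBV of the same library, with edgeR's quasi-likelihood test and the library as a block. By reads 58 of 285 such pairs passed the threshold (20.4%), among them 1 of 12 for TRBV20 and 1 of 12 for TRBV23, both below that background. TRBV20 joined TRBJ1-2 in 5.99% and 5.75% of its reads in WT libraries and 6.09% and 5.55% in Tet2/3 DKO, 5.85% ± 0.244 against 4.57% in other segments (SD, n = 4). The log2 fold change was 0.36 (SE 0.08, edgeR adjusted p = 0.0209). TRBV23 joined TRBJ1-6 in 1.61%, 1.52%, 1.41% and 1.11% of its reads, 1.41% ± 0.218 against 2.54%. The log2 fold change was -0.86 (SE 0.15, edgeR adjusted p = 0.0131). TRBJ1-6 was also the least used partner of TRBV23. Each of these calls was lost without WT replicate 2, with an adjusted p of 0.12 for the TRBV20 pair and 0.0835 for the TRBV23 pair, and without Tet2/3 DKO replicate 1, with 0.177 and 0.104, while the fold changes moved by less than 0.1. TRBV20 with TRBJ1-3 passed without WT replicate 2, and TRBV23 with TRBJ1-3 passed without WT replicate 1. Among out-of-frame clones 0 of 262 pairs passed in edgeR, with 19 at an unadjusted p below 0.05, and the log2 fold change of TRBV20 with TRBJ1-2 was -1.03 (edgeR adjusted p = 0.730).

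Counted by clones, which leaves out clone size, 143 of 268 pairs passed (53.4%), with 6 of 12 for TRBV20, close to that background, and 2 of 12 for TRBV23, below it. The pairs named next are a description of these segments. TRBV20 was joined more often than other segments to TRBJ1-2 (log2 fold change 0.41, SE 0.05), TRBJ1-3 (0.23, SE 0.05), TRBJ1-4 (0.20, SE 0.05) and TRBJ2-1 (0.14, SE 0.03). It was joined less often to TRBJ2-5 (-0.09, SE 0.03) and TRBJ2-7 (-0.17, SE 0.02). The edgeR adjusted p of these pairs lay at or below 0.00358. TRBJ2-7 was still the most used partner of TRBV20, with 19.2%, 18.9%, 19.4% and 20.4% of its clones against 21.2% to 23.4% in other segments. TRBJ1-5 and TRBJ1-6 were the least used, at 2.39% and 2.43% of clones on average, and by reads TRBJ1-5 held 2.14% ± 0.626 (SD, n = 4) against 2.06%. TRBV23 was joined less often to TRBJ1-3 (-0.77, SE 0.17, edgeR adjusted p = 0.000196) and to TRBJ1-6 (-0.55, SE 0.15, edgeR adjusted p = 0.00373). TRBJ1-3 made up 3.35%, 1.75%, 2.60% and 3.10% of its clones against 4.49% to 4.69% in others. TRBJ2-7 was the most used partner of TRBV23, at 20.9% ± 1.34 of its reads (SD, n = 4) against 21.4%, and did not pass the test (edgeR adjusted p = 0.609).

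Segments of the TRBJ1 cluster, which lies upstream of TRBJ2, made up 30.02%, 29.98%, 32.6% and 30.9% of TRBV20 clones. This was 3.19 ± 0.550 percentage points above other segments (SD, n = 4 libraries, exact sign-flip permutation test, p = 0.13), in 4 of 4 libraries. By reads the difference was 2.41 ± 2.83 percentage points (exact sign-flip permutation test, p = 0.25), and WT replicate 2 lay below other segments. For TRBV23 the share of clones was 24.3%, 21.2%, 29.0% and 25.1%, lower than in other segments in 4 of 4 libraries, with a mean difference of -2.99 ± 2.30 percentage points (same exact test, p = 0.13). By reads TRBV23 lay above other segments in 2 of 4 libraries, with a mean difference of -1.59 ± 2.79 percentage points (same exact test, p = 0.5). A D segment was found in 65.3% to 67.2% of TRBV20 clones, fewer than in other segments (difference -6.44 ± 0.872 percentage points, same exact test, p = 0.13). By reads the difference was -3.47 ± 3.39 percentage points (same exact test, p = 0.25), and WT replicate 1 lay above other segments. For TRBV23 it was found in 70.1% to 74.5% of clones, on both sides of other segments. A D segment counts as found by the alignment, and whether D bases were counted as V was not tested.

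**Figure D4:**
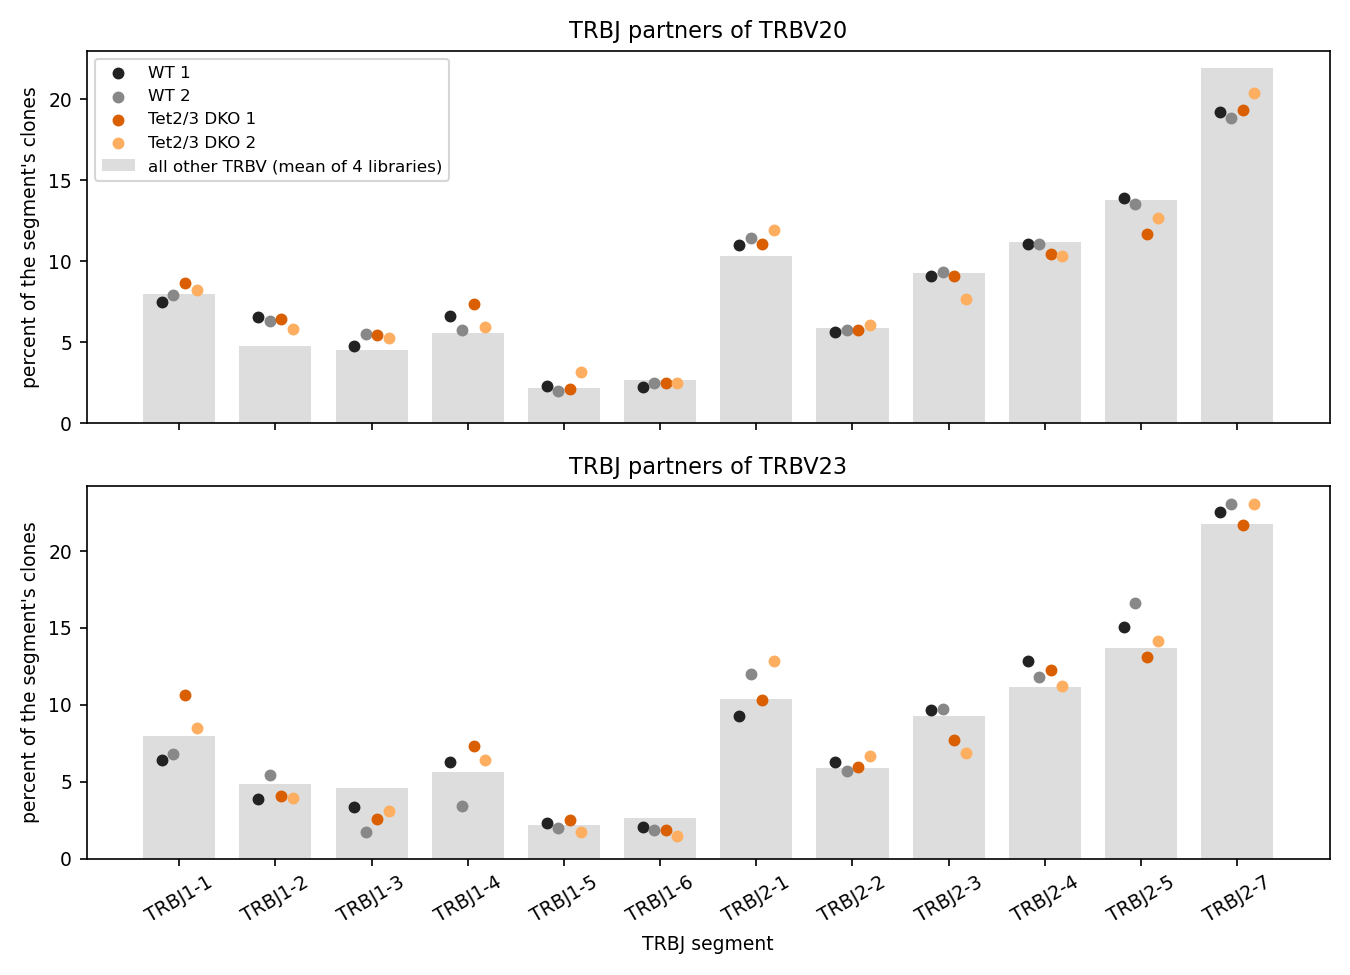
Share of each TRBJ segment among the clones of TRBV20 (top) and TRBV23 (bottom) in percent, with a point for each library and grey bars for the mean of all other TRBV segments. TRBV20 points lie above the bars at TRBJ1-2 and below at TRBJ2-7, and TRBV23 points lie below the bars at TRBJ1-3 and TRBJ1-6.

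In the main fit no V-J pair of either segment passed the threshold between genotypes. None of all 285 pairs did (0%), with 29 at an unadjusted edgeR p below 0.05. With the replicate number as a block 2 pairs passed, none of them of TRBV20 or TRBV23. Each segment had 1 pair with an unadjusted p below 0.05, named here after the values were seen. TRBV20 with TRBJ2-5 made up 20.6% and 12.1% of TRBV20 reads in WT libraries and 11.03% and 13.6% in Tet2/3 DKO. Its log2 fold change was -0.62 with an edgeR adjusted p of 0.395. It was -0.12 without WT replicate 1 and -0.99 without WT replicate 2. TRBV23 with TRBJ1-3 made up 11.7% and 1.84% of TRBV23 reads in WT libraries and 2.65% and 2.25% in Tet2/3 DKO. Its log2 fold change was -1.96 with an edgeR adjusted p of 0.283. In both pairs WT replicate 1 stood apart and holds the most abundant clone of the segment in exactly that pair. Without WT replicate 1 the log2 fold change of TRBV23 with TRBJ1-3 was 0.23, and without WT replicate 2 it was -2.80. Each of these fits leaves 1 WT library. Without the 10 most abundant clones of each library, of any segment, TRBV23 with TRBJ1-3 passed (log2 fold change -1.94, edgeR adjusted p = 0.0206). That setting left out no TRBV23 clone. The clone of 256 reads in WT replicate 1, rank 22 in its library, stayed in this pair. With each clone counted once, the log2 fold change was 0.0157 for that pair and -0.18 for TRBV20 with TRBJ2-5.

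The most abundant clones of each segment are shown by their CDR3, 5′ to 3′, with the bases between the V and the J part in capitals. A base counted as V can include a palindromic addition at the segment's end. The V part follows the alignment, and in the TRBV23 clone of Tet2/3 DKO replicate 2 it has 22 bases. That is more than the 17 of an untrimmed TRBV23, and whether the further bases came from a D segment was not tested.
TRBV20, WT replicate 1, TRBJ2-5: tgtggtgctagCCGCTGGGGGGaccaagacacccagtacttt
TRBV20, WT replicate 1, second, TRBJ1-3: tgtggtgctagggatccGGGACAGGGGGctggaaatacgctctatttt
TRBV20, WT replicate 2, TRBJ2-7: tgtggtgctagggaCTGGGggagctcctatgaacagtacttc
TRBV20, Tet2/3 DKO replicate 1, TRBJ2-2: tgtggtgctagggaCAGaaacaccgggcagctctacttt
TRBV20, Tet2/3 DKO replicate 2, TRBJ2-1: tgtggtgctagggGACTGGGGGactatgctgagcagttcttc
TRBV23, WT replicate 1, TRBJ1-3: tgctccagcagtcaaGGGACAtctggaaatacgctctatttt
TRBV23, WT replicate 2, TRBJ1-1: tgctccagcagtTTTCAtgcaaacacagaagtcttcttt
TRBV23, Tet2/3 DKO replicate 1, TRBJ1-2: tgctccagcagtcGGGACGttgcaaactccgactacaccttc
TRBV23, Tet2/3 DKO replicate 2, TRBJ2-1: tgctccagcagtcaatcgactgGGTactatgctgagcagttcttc
All 9 are in frame.

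The TRBV20 clone with TRBJ2-5 was the most abundant TCRβ clone of WT replicate 1, with 2693 reads, 0.737% of the library (95% Wilson interval 0.710% to 0.765%) and 8.85% of its TRBV20 reads. The TRBJ1-3 clone of that library ranked 4 among all TCRβ clones with 856 reads, 0.234% (0.219% to 0.250%). The first TRBV20 clone of WT replicate 2 had 556 reads and rank 5 and made up 0.122% (0.113% to 0.133%). That of Tet2/3 DKO replicate 1 had 402 reads and rank 4 and made up 0.0982% (0.0890% to 0.108%). That of Tet2/3 DKO replicate 2 had 1155 reads, 0.203% (0.191% to 0.215%), and ranked 11. So TRBV20 supplied 2 of the 10 most abundant clones in WT replicate 1, 1 in each of WT replicate 2 and Tet2/3 DKO replicate 1 and none in Tet2/3 DKO replicate 2. The most abundant TRBV23 clone had 256 reads in WT replicate 1, 26 in WT replicate 2, 34 in Tet2/3 DKO replicate 1 and 111 in Tet2/3 DKO replicate 2, and no TRBV23 clone was among the 10 most abundant of a library.

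The 10 most abundant clones of TRBV20 held 16.3% and 6.72% of its reads in WT libraries and 6.03% and 11.4% in Tet2/3 DKO. Clones of at least 0.02% of the TCRβ reads, 19, 23, 8 and 20 in number, held 19.1%, 10.9%, 5.50% and 16.5%. The genotypes overlapped on both measures (p = 0.667 on each, exact permutation test). In other segments such clones held 6.29%, 3.61%, 2.43% and 16.8%, so that the TRBV20 share was above that of other segments in 3 of 4 libraries and close to it in Tet2/3 DKO replicate 2. For TRBV23 the 10 most abundant clones held 23.9%, 5.48%, 7.09% and 9.95% of its reads (exact permutation test, p = 1), and 2 clones, both in WT replicate 1, reached 0.02% of the TCRβ reads. The first TRBV23 clone of Tet2/3 DKO replicate 2 lay just below that limit at 0.0195%. Without WT replicate 1 the difference between genotypes in the share of the 10 most abundant clones turned from -2.76 to 2.0 percentage points for TRBV20 and from -6.18 to 3.04 for TRBV23.

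Chains made of the same V, J and CDR3 bases in all 4 libraries took up a larger share for TRBV20 than for any other TRBV segment. No test compared TRBV20 with single segments. Of 18571 distinct in-frame TRBV20 chains, 94 were found in all 4 libraries, 0.506%, the highest share of the 24 segments, with TRBV5 next at 0.437%. These chains held 6.92% and 7.71% of the in-frame TRBV20 reads in WT libraries and 7.46% and 6.80% in Tet2/3 DKO. In all segments other than TRBV20 and TRBV23, such chains held 1.77%, 1.74%, 1.71% and 1.40%. The difference was 5.57 ± 0.363 percentage points (SD, n = 4 libraries, exact sign-flip permutation test, two-sided, p = 0.13), in 4 of 4 libraries. The same chains, chosen by their presence in all 4 libraries, were counted in each. The 4 differences are therefore not independent, and the test cannot decide whether they hold beyond these libraries. The number of chains sampled per segment moves with such a share, and its part in the result was not tested. For TRBV23, 0 of 2771 chains were found in all libraries, which allows a share of up to 0.108%.

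The TRBV20 chains found in all libraries had a median of 5.5 bases between V and J, against 8 in the other TRBV20 chains, and 98.9% of them began with CGAR, against 65.3%. TRBJ2-7 was the partner of 27.7% of them, against 19.4%. These values describe the set as aligned and were not tested. The 3 chains with the most reads in the library where they had the fewest are printed here, with the same use of capitals.
The first, TRBJ2-7: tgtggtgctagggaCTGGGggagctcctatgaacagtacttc
The second, TRBJ2-7: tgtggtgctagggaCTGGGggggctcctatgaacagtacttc
The third, TRBJ2-3: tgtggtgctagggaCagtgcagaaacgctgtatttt
By the alignment, all 3 carry the whole germline end of TRBV20, and the first and second share the stretch between V and J. Whether the last of the bases counted as V came from a D segment was not tested. The first had 355 and 565 reads in WT libraries and 204 and 320 in Tet2/3 DKO, 0.710% to 1.61% of the TRBV20 reads. It is the chain of the most abundant TRBV20 clone in WT replicate 2. The second had 234, 196, 52 and 92 reads, and the third 76, 32, 77 and 48. By contrast, the chain of the most abundant TRBV20 clone of WT replicate 1 had 2852 reads there, 1 read in Tet2/3 DKO replicate 1 and none in the other libraries.

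A part of the TRBV23 clones lacked the first part of the V segment. Shares are given among the judged clones, those whose last bases of the V part before the CDR3 were the usual ones, which held 98.4% to 99.1% of the TRBV23 reads and were 96.5% to 97.9% of the TRBV23 clones. In the clones with a replaced start the last part of the V sequence was the usual one, but the 5′ part was shorter and different. They made up 10.9% of the judged TRBV23 reads in WT replicate 1 (95% Wilson interval 9.77% to 12.04%) and 10.1% in WT replicate 2 (9.04% to 11.3%). They made up 11.6% in Tet2/3 DKO replicate 1 (10.4% to 13.0%) and 9.61% in Tet2/3 DKO replicate 2 (8.60% to 10.7%). Of the judged clones the shares were 15.4% and 13.3% in WT libraries and 15.5% and 12.3% in Tet2/3 DKO, and the genotypes overlapped on both scales (p = 1 on each, exact permutation test). Only TRBV30, at 23.1% of judged reads on average, had a higher share. TRBV19 followed with 1.80% and TRBV3 with 1.26%, and TRBV20 had 0.0746%, in 26 clones.

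The TRBV23 join was nearly always the same. In 438 of 460 clones the usual sequence set in at base 151, counted from the first base of FR1 in the usual sequence, and in 436 of these the 10 bases before it were identical. The join is shown with the shared part in capitals, followed by the usual sequence at the same place.
TRBV23, replaced start: cctggccggtAATCAACAGCCTCT
TRBV23, usual: ttactttcagAATCAACAGCCTCT
The join lies inside CDR2, so that the first 150 bases of the usual sequence, with its CDR1, are missing, and 73 other bases take their place in 433 of the 438 clones. In the usual sequence the 2 bases before the join are AG. The joined sequence was found in no clone of another V segment. The 460 clones hold 426 distinct combinations of library, J segment and CDR3, and 66 of the clones (14.3%) shared V, J and CDR3 with a clone of the usual start in the same library. The CDR3 was in frame in 87.6% to 90.7% of the clones with the replaced start and in 97.0% to 98.0% of the usual TRBV23 clones. By reads these shares were 88.8% to 92.4% and 98.5% to 98.9%. Left without the clones of replaced start, in every segment, the in-frame share of TRBV23 was 1.24 percentage points above that of other TRBV, in place of 0.406.

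**Figure D5:**
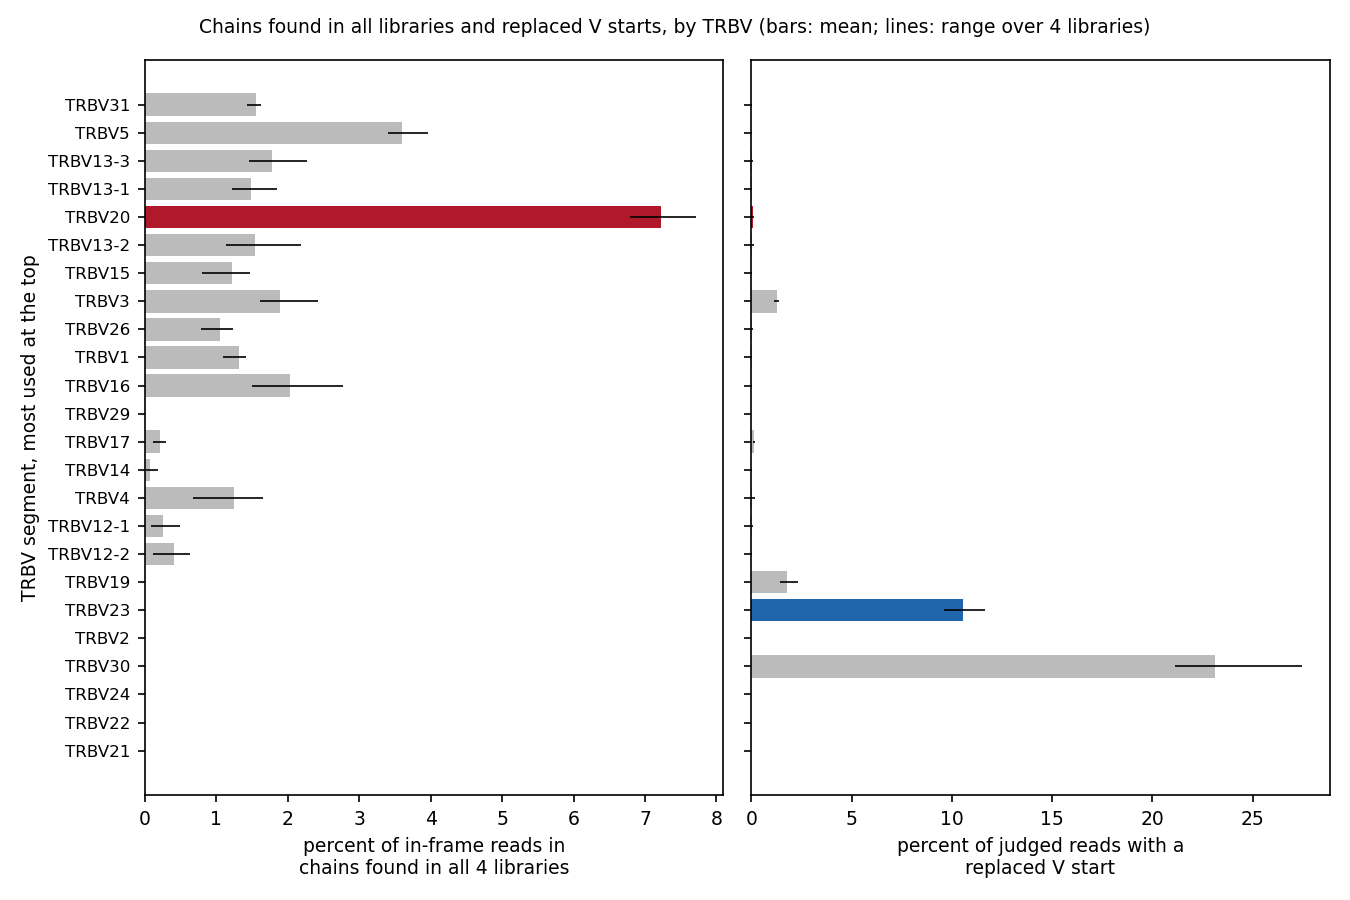
For each TRBV segment, ordered from the most to the least used, the percent of in-frame reads in chains found in all 4 libraries (left) and the percent of judged reads with a replaced V start (right). Bars are means and lines the range over the 4 libraries. TRBV20 (red) has the longest bar on the left, at 7.22%, and TRBV23 (blue) the second longest on the right, at 10.6%.

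Other TRBV segments were ranked by likeness to each member over the 4 libraries, as a description. The read share of TRBV20, as log2 values centred on their mean, ran closest to that of TRBV24, at a distance of 0.12, followed by TRBV17 at 0.15 and TRBV31 at 0.19, with a median of 0.31 over all other segments. That of TRBV23 ran closest to TRBV29 at 0.25, TRBV20 at 0.26 and TRBV24 at 0.26, with a median of 0.46. All these distances rest on the same 4 libraries. In TRBJ shares, TRBV20 was closest to TRBV19, with a total variation distance of 4.77 percentage points, then TRBV31 with 5.29 and TRBV13-2 with 5.68, and TRBV23 to TRBV13-3 with 4.93, TRBV16 with 5.47 and TRBV20 with 5.69. The medians over all other segments were 9.36 and 8.12 percentage points.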

How the data were processed

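RNA of sorted spleen CD4 T cells was made into TCR libraries by 5′-RACE, without molecular identifiers, and sequenced on a MiSeq. The authors trimmed reads with fastp and assembled clones with MiXCR 4.7.0, and the deposited values are read counts per clone. The submitters' processing notes also name bcl2fastq 2.20.0, fastp 0.21.0 and mm10. TCRα tables were not used. Members, rules and gene lists were chosen with earlier results of these data known.

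Reads were summed per first listed V segment, V-J pair or J segment. edgeR 4.0.16 (R 4.3.3) quasi-likelihood tests used total TCRβ reads as library sizes, features of at least 10 reads and Benjamini-Hochberg adjustment over the whole table, with a threshold of 0.05. They were also run on simulated counts of fixed dispersion, without single large clones. That run does not show how they behave on these libraries. Single values per library were compared by exact permutation tests. A start was called replaced when the last 30 bases before the CDR3 matched the segment's most abundant sequence, the first 20 differed and at least 5 bases were missing; this search and the comparisons of clone size classes, frame-specific clone size and recurring chains were added after seeing the data. Named were the partners with the largest and smallest share or past the threshold, the first clone of each segment per library, clones among the 10 most abundant of a library, neighbours in share and the 3 likest segments. Alternatives covered counting, filters, normalization, DESeq2 1.42.0 and leaving out libraries. Equal replicate numbers are labels only: over 24 segments, the difference between replicates 1 and 2 correlated between genotypes at 0.18 in only 2 pairs of libraries.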

Additional observations from a re-analysis of the deposited data

How the results depend on the processing

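Of 222 recomputed values, 183 kept their direction and their side of the threshold, moved by less than the spread between replicates or, for counts of calls, stayed within 1.5 times the main count. Such a value could still shrink. The log2 fold change of TRBV20 between genotypes, counted among them, went from -0.20 by reads to -0.01 per clone. Each genotype difference rests on 2 libraries against 2, and rare partners of TRBV23 rest on few reads. With DESeq2, 1 TRBV segment passed between genotypes. With the replicate number as a block, 0 segments passed (log2 fold change -0.20 for TRBV20 and -0.37 for TRBV23) and 2 V-J pairs. Without the 10 most abundant clones of each library 7 V-J pairs passed, 1 of them TRBV23 with TRBJ1-3 (log2 fold change -1.94, edgeR adjusted p = 0.0206). No TRBV23 clone was among those left out. Leaving out 1 library gave 0 to 8 segments, 0 to 50 V-J pairs and 32 to 81 TRBJ partners past the threshold; 8, 50 and 32 came without Tet2/3 DKO replicate 1, where 1 of the 50 pairs was TRBV20 with TRBJ2-2, and 36 partners passed without WT replicate 2. Counted once per clone, 143 TRBJ partners passed, and among out-of-frame clones 0 did. The cause of these shifts was not tested. Among out-of-frame clones the log2 fold changes of TRBV20 turned to -1.03 for TRBJ1-2, -0.12 for TRBJ1-5 and 0.0866 for TRBJ2-7. Per clone, TRBV23 turned to 0.055 for TRBJ2-7 against other TRBV and to 0.0157 for TRBJ1-3 between genotypes. Without 1 library, the log2 fold change was -0.10 to 0.17 for TRBV20 with TRBJ1-5, -0.0609 to 0.00255 for TRBV23 with TRBJ2-7, 0.34 to 0.39 for TRBV20 with TRBJ1-2, -0.95 to -0.77 for TRBV23 with TRBJ1-6 and -2.80 to 0.23 for TRBV23 with TRBJ1-3 between genotypes. The difference between genotypes in the TRBV20 in-frame share was 0.0949 percentage points per clone. Per clone the TRBV20 CDR3 differed by -0.0251 amino acids between genotypes and by -0.795 from other TRBV. The TRBV23 CDR3 difference between genotypes was -0.128 per clone, 0.00903 with at least 2 reads per clone, 0.0267 with the usual V start (added after seeing the data) and -0.0867 to 0.0695 without 1 library. The TRBV23 in-frame share was 1.24 percentage points above other TRBV with the usual V start. Without 1 library, the genotype difference in the 10 most abundant clones was -7.53 to 2.0 percentage points for TRBV20 and -15.4 to 3.04 for TRBV23, and that in large clones -9.52 to 1.53 and -15.3 to 0.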
